A study of Rattus norvegicus with 6 samples.

Results

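The neurotrophins and their receptors were read as 7 genes of 14506 measured in neurospheres, floating clusters of cells cultured from the carotid body of adult rats. The carotid body is a small organ in the neck that senses blood oxygen. The genes are the ligands Bdnf, Ntf3 and Ntf4, the receptor tyrosine kinases Ntrk2 and Ntrk3, the p75 receptor Ngfr and the sorting receptor Sort1, chosen by symbol. Each was represented by the probe set of highest mean over the arrays, and each had 1 probe set that carried its symbol alone. Total RNA was measured on 6 Affymetrix arrays. The 3 arrays labelled undifferentiated came from spheres kept with FGF, IGF-1, EGF and ET-1 at normal oxygen, and the 3 labelled differentiated from spheres kept at 3% oxygen with none of those mitogens, all after 10 days in neural crest medium. Mitogens and oxygen changed together between the groups, so their parts cannot be told apart. The labels name no rat strain and do not say whether like-labelled arrays stem from different cultures or rats. The p-values thus cover only the spread among these 6 samples, which may be technical.

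Neurotrophins are secreted as precursors that proteases trim to short mature forms. Mature brain-derived neurotrophic factor (Bdnf) and neurotrophin 4 (Ntf4) bind TrkB, the product of Ntrk2, and neurotrophin 3 (Ntf3) binds chiefly TrkC, the product of Ntrk3. The p75 receptor binds all neurotrophins and pairs with sortilin, the product of Sort1, to bind the uncleaved precursors, and sortilin also carries proteins between the Golgi, endosomes and cell surface. In the carotid body, brain-derived neurotrophic factor is known as a survival factor for the sensory neurons that innervate the glomus cells.

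Glomus cells make catecholamines and sense oxygen, and their markers went against the labels. All 9 measured markers of these cells fell in the arrays labelled differentiated, and Th, which encodes tyrosine hydroxylase of the catecholamine pathway, fell by 2.86 ± 0.18 (SE, limma adjusted p = 5.09e-07). Groups are therefore named by their labels throughout. Whether the labels were exchanged was not tested, and an exchange would turn every direction given here. Every difference below is the mean of the arrays labelled differentiated minus the mean of those labelled undifferentiated, on the log2 scale of the deposited values. Array medians lay between 5.05 and 5.13, and the median difference over all genes was 0.06. A gene was called at a limma adjusted p under 0.05 over all genes. By that rule 29.5% of all genes were called, 14.7% higher and 14.9% lower.

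Of the 7 genes, Ntrk2 and Sort1 fell, Bdnf rose, and Ntf3, Ntf4, Ntrk3 and Ngfr did not pass. The median difference over the 7 was -0.32. In 4 of them, the 3 that were called and Ntrk3, the groups did not overlap, with Bdnf on the higher and the other 3 on the lower side. Among all genes 42.3% did not overlap, 22.5% higher and 19.8% lower. Set beside the shares for all genes, the counts among 7 genes say little of the family as a whole, and the results below are those of single genes.

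**Figure D1:**
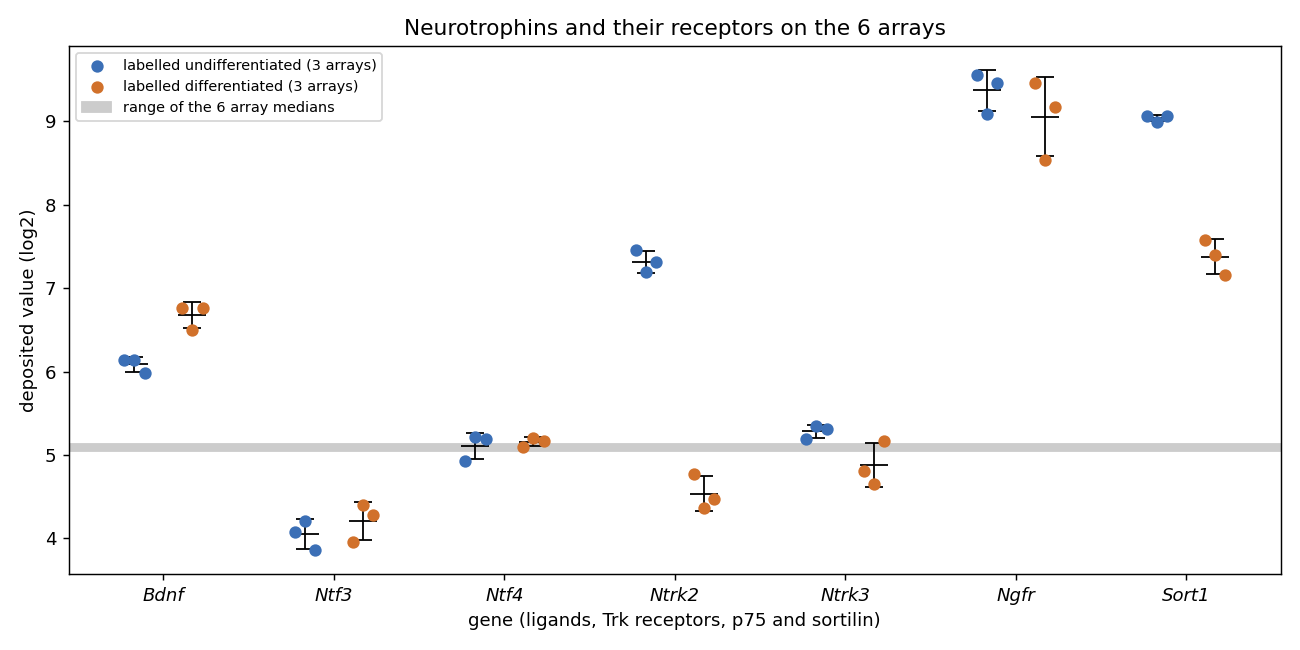
Deposited log2 value (y axis) of each gene (x axis) on the 3 arrays labelled undifferentiated (blue) and the 3 labelled differentiated (orange); bars give the mean and SD (n = 3) and the grey band the range of the array medians, 5.05 to 5.13. Ntrk2 and Sort1 sat lower and Bdnf higher in the arrays labelled differentiated, while the points of Ntf3, Ntf4 and Ngfr overlapped.

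Ntrk2, the gene of the receptor TrkB, had the largest difference of the 7. Its values were 7.46, 7.19 and 7.31 in the arrays labelled undifferentiated and 4.77, 4.37 and 4.47 in those labelled differentiated. A gap of 2.42 separated the lowest value of the first group from the highest of the second, against ranges of 0.26 and 0.40 within them. The means were 7.32 ± 0.13 and 4.54 ± 0.21 (SD, n = 3 each). Ntrk2 fell by 2.78 ± 0.14 (SE; 95% confidence interval -3.09 to -2.48), a 6.88-fold difference (limma adjusted p = 1.24e-07). Counting Ntrk2 itself, 63 of the 14506 genes fell by as much or more. All 3 of its arrays labelled differentiated lay below their array medians and above their lower quartiles, and nothing in the files shows them to exceed background, so the size of the fall is uncertain. Ntrk2 is known to give a full-length kinase receptor and truncated forms without the kinase, and a single value per array cannot tell these apart.

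Ntrk3, the gene of the receptor TrkC, read 5.19, 5.35 and 5.31 in the arrays labelled undifferentiated and 4.81, 4.65 and 5.17 in those labelled differentiated. The groups did not overlap, but differentiated replicate 3 lay only 0.02 under the lowest array of the other group. Of its arrays labelled differentiated, 2 lay below their array medians, and its values were not shown to stand above background. The difference was -0.41 ± 0.15 (SE; 95% confidence interval -0.75 to -0.07) and did not pass (limma adjusted p = 0.0723). Without differentiated replicate 3 it was -0.55 and passed (limma adjusted p = 0.0192), and without differentiated replicate 2 it was -0.29 (adjusted p = 0.214). The call on Ntrk3 thus rested on which array of the group was counted.

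Ngfr, the gene of the p75 receptor and a marker of glial and neural crest cells, did not differ beyond the spread of its arrays. It read 9.56, 9.09 and 9.46 in the arrays labelled undifferentiated and 9.46, 8.54 and 9.17 in those labelled differentiated. The groups overlapped, and the lowest array of each was its replicate 2. The difference was -0.32 ± 0.21 (SE; 95% confidence interval -0.77 to 0.14; limma adjusted p = 0.302). The confidence interval holds both a fall of 0.77 and a rise of 0.14. With an SD within groups of 0.38, Ngfr varied at least as much between like-labelled arrays as 96.1% of all genes. Without differentiated replicate 2 the difference was -0.06 (limma adjusted p = 0.839), and without differentiated replicate 1 it was -0.52 (adjusted p = 0.0806).

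Ngfr was lowest in replicate 2 of both groups, as were 14.6% of all genes. So were 4 of the 8 measured markers of glia and the Schwann lineage (S100b, Sox10, Erbb3 and Cdh19), all 3 progenitor markers (Nes, Sox2 and Vim) and 3 of 9 mesenchymal markers. The other glial markers differed: Mbp was lowest in replicate 1 of both groups and Fabp7 in replicate 3 of both, while Gfap and Foxd3 were lowest in replicate 2 of only 1 group each. Erbb3, a neuregulin receptor of Schwann cells, read 7.76, 7.04 and 7.83 in the arrays labelled undifferentiated and 8.48, 7.53 and 8.30 in those labelled differentiated. Sox10, a transcription factor of neural crest and glia, read 7.70, 7.37 and 7.54, then 7.94, 7.43 and 7.79. Over the list S100b and Foxd3 rose, Mbp, a myelin gene, fell and 5 did not pass, and the log2 of its summed level ran from 9.86 to 10.26 in the arrays labelled undifferentiated and from 9.75 to 10.52 in those labelled differentiated. Under median centring neither S100b (limma adjusted p = 0.0514) nor Foxd3 (0.0657) passed. Both also lost their calls under other alternatives, such as the unmoderated test (adjusted p = 0.251 and 0.0566). Without differentiated replicate 3 neither passed (limma adjusted p = 0.0819 and 0.115), and the groups of S100b overlapped. The pattern of low arrays was described with the values known, is not particular to glia, and the part of any of these cells in Ngfr was not tested. In bulk RNA, fewer cells of a type and less RNA per cell cannot be told apart.

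Sort1, the gene of sortilin, read 9.06, 8.999 and 9.06 in the arrays labelled undifferentiated and 7.57, 7.40 and 7.16 in those labelled differentiated. The first group was tight, with a range of 0.06, and lay 1.43 above the highest array of the second. The means were 9.04 ± 0.04 and 7.38 ± 0.21 (SD, n = 3 each). Sort1 fell by 1.66 ± 0.11 (SE; 95% confidence interval -1.91 to -1.41), a 3.16-fold difference (limma adjusted p = 1.09e-06). All 6 values lay above their array medians, and 298 of the 14506 genes, Sort1 included, fell by as much or more.

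The falls of Ntrk2 and Sort1 ran beside those of the glomus cell markers. The log2 of the summed level of those 9 markers was 14.67 to 14.84 in the arrays labelled undifferentiated and 11.59 to 12.19 in those labelled differentiated, with a median difference of -2.75. Of 9 neuron markers 1 rose, 3 fell and 5 did not pass, and the log2 of their summed level went from 10.98 to 11.15 in the first group to 9.82 to 10.24 in the second. Their median difference was -0.05, and the summed fall was carried by the most abundant of them, Snap25, a synaptic fusion protein that went from a mean of 10.27 to 8.23. The summed level of 6 endothelial markers fell too, from 8.45 to 8.96 in the first group to 7.35 to 7.38 in the second. Among them Cldn5 fell by 2.31, 0 rose and 5 did not pass, with a median of -0.05. Falls beside those of Ntrk2 and Sort1 were thus not particular to glomus cell markers. None of the markers of these lists was listed at 0, but the lowest value on any array was 0.42, so this says nothing of their presence. The part of these cells in the 2 falls was not tested.

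**Figure D2:**
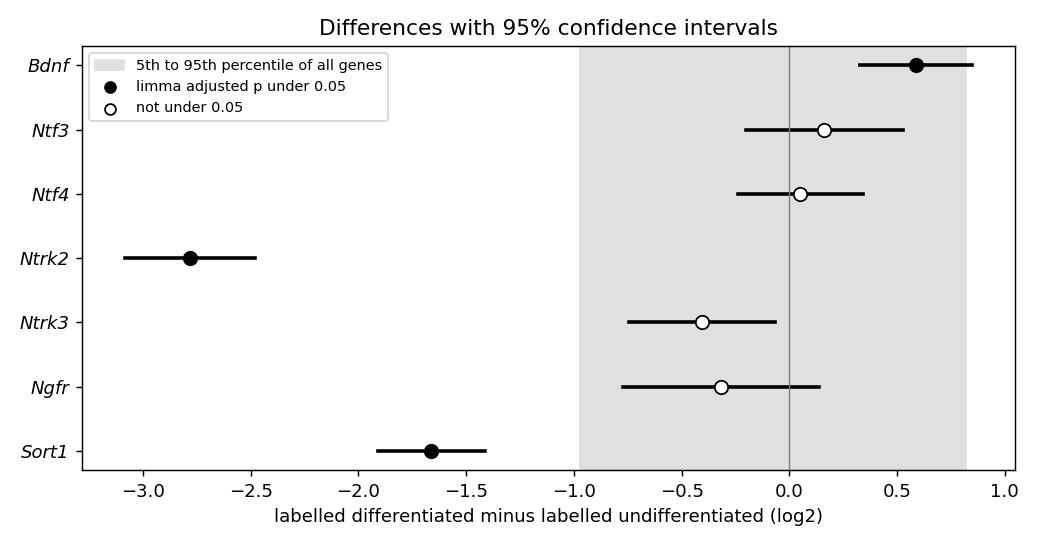
Difference of each gene, labelled differentiated minus labelled undifferentiated (x axis, log2), with its 95% confidence interval from limma; filled points had an adjusted p under 0.05 and the grey band spans the 5th to the 95th percentile of all genes, -0.97 to 0.82. Ntrk2 at -2.78 and Sort1 at -1.66 lie outside the band, and Bdnf at 0.59 lies inside it with an interval above 0.

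Bdnf, a ligand of TrkB, moved in the other direction from that receptor's gene. It read 6.14, 6.14 and 5.98 in the arrays labelled undifferentiated and 6.76, 6.50 and 6.77 in those labelled differentiated. Each array of the second group lay above each of the first, with a gap of 0.35. Bdnf rose by 0.59 ± 0.12 (SE; 95% confidence interval 0.33 to 0.85), a 1.50-fold difference (limma adjusted p = 0.00283), and 1277 of the 14506 genes, Bdnf included, rose by as much or more. The markers of mesenchymal and fibroblast cells moved the same way: 8 of 9 rose and 1 fell, and the log2 of their summed level went from a range of 13.90 to 14.30 up to 14.93 to 15.00. Some other lists leaned the same way. The macrophage and leukocyte markers had a median difference of 0.34, with 2 higher, 1 lower and 5 not passed. The 3 progenitor markers had a median of 0.33 and did not pass. The part of any of these cells in the rise of Bdnf was not tested.

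The other ligands did not pass. Ntf3 read 4.08, 4.21 and 3.86 in the arrays labelled undifferentiated and 3.95, 4.40 and 4.28 in those labelled differentiated. All 6 values lay below their array medians, and the transcript was not shown to stand above background in either group. Its difference was 0.16 ± 0.165 (SE; 95% confidence interval -0.20 to 0.53; limma adjusted p = 0.531). Ntf4, the other ligand of TrkB, read 4.92, 5.21 and 5.19, then 5.10, 5.21 and 5.17, close to the array medians throughout. Its difference was 0.05 ± 0.13 (SE; 95% confidence interval -0.24 to 0.34; limma adjusted p = 0.818), so the interval allows changes of up to about 0.34 in size.

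**Figure D3:**
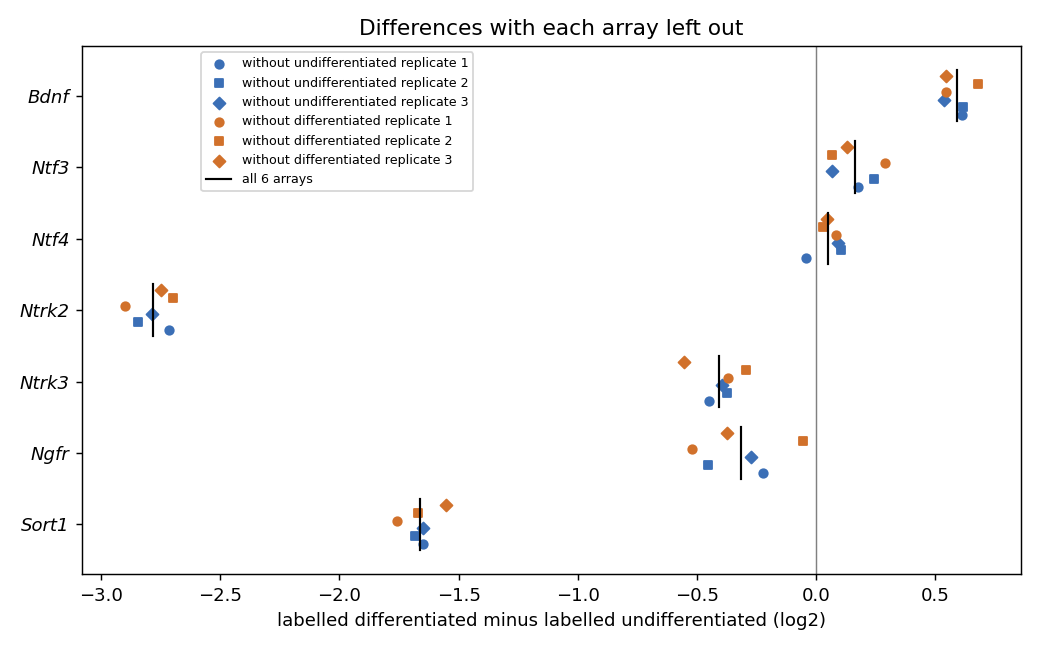
Difference of each gene (x axis, log2) with each of the 6 arrays left out in turn; blue marks leave out an array labelled undifferentiated, orange marks one labelled differentiated, and the black bars give the value with all 6 arrays. Ntrk2 stayed between -2.90 and -2.70, Sort1 between -1.76 and -1.55 and Bdnf between 0.54 and 0.68, while Ngfr ran from -0.52 to -0.06 and Ntf4 from -0.04 to 0.10.

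Upstream sequences of the called genes are shown for the letters that the hypoxia response element and the cAMP response element are known by, since oxygen differed between the groups and Bdnf is known as a target of cAMP response element binding proteins. RefSeq promoter windows of build GRCr8 were matched for Bdnf, Ntf3, Ntf4 and Sort1, and the 250 bases before each listed start were searched on both strands for ACGTG and GCGTG, the core of the hypoxia response element, and for TGACGTCA, the cAMP response element. Ntrk2, Ntrk3 and Ngfr were not matched. The Sort1 window lies at chr2:198612245-198612494 on the plus strand, and 2 of the 6 Bdnf windows, for different starts of the gene, lie at chr3:116619383-116619632 and chr3:116637608-116637857 on the plus strand. Capitals mark core matches, read as CACGT where the match is on the opposite strand.
Sort1: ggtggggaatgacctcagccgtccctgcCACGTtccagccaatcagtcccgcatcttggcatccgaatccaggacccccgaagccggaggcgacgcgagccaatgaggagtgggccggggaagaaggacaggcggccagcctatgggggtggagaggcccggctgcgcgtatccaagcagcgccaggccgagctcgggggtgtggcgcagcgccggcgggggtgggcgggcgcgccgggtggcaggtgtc
Bdnf at 116619383: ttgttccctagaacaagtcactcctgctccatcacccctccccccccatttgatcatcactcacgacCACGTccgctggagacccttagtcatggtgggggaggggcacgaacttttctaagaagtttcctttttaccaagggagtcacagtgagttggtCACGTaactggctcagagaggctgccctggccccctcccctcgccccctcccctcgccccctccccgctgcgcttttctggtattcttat
Bdnf at 116637608: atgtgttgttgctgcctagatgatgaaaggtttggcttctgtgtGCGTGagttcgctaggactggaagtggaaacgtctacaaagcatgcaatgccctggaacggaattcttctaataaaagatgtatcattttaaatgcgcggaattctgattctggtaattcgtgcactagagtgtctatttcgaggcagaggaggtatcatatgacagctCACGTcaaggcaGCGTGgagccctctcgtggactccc
The Sort1 window held 1 core match, which begins 222 bases before the start. The Bdnf window with the lower coordinates held 2, at 183 and 90 bases, and the other one 3, at 206, 37 and 25 bases. In all 4 of 6 Bdnf windows held a core match, at 6 distinct sites, since overlapping windows share 1 of them. The 2 Bdnf windows shown are those with the most matches, and each of the others held 1 or 0. The genes that were not called held them too, in 2 of 3 Ntf3 windows, at 1 shared site, and in the 1 window of Ntf4. Of the 33469 windows in the table, some of which overlap, 36.7% held a core match. The letters TGACGTCA were in 0 of the 11 windows of the 4 matched genes and in 1.6% of all windows. The match 37 bases before the start in the Bdnf window at 116637608 lies within TCACGTCA, which differs from the cAMP response element by 1 letter and was found in 0.35% of all windows, so the capitals there are not the hypoxia core alone. That search was added with the sequence known and counted only those letters. Other variants 1 letter from the cAMP response element were not counted, and the Sort1 window also holds such a variant, TGACCTCA. Such matches are letters in a window and show no binding, and the array value does not tell which start of Bdnf was used.

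The genes whose profiles lay nearest to each called gene were found by the root mean square distance between log2 values centred on each gene's mean, over the 6 arrays. Nearest to Ntrk2 were Tspan33, a tetraspanin, at a distance of 0.14, Pc, pyruvate carboxylase, at 0.15, and Hspa4l, a heat shock protein, at 0.15. Nearest to Sort1 were Enpp4, an ectonucleotide pyrophosphatase, at 0.06, Dnajc6, the clathrin-uncoating protein auxilin, at 0.06, and Tmem176b, a membrane protein, at 0.07. Nearest to Bdnf were Smarcd3, a chromatin remodelling subunit, at 0.04, Lrfn4, a synaptic adhesion protein, at 0.04, and Sp7, the osteoblast factor osterix, at 0.05. These distances mostly follow the difference between the groups: Tspan33 fell by 2.57, Enpp4 fell by 1.63 and Smarcd3 rose by 0.51.

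The genes around the receptors were read from lists of their known partners, against 29.5% of all genes called. Among 4 measured further receptors 1 rose, 0 fell and 3 did not pass. The gene that rose was Nradd, a relative of the p75 receptor with a death domain, by 0.70 ± 0.10 (SE, limma adjusted p = 0.000401). The difference of Rtn4r, the Nogo receptor that partners p75, was 0.36 (limma adjusted p = 0.0649, and 0.00866 without undifferentiated replicate 2). The difference of Sorcs2, a relative of sortilin, was 0.49 (limma adjusted p = 0.105, and 0.0201 without differentiated replicate 2). Rtn4r and Sorcs2 lie outside the naming rule and were picked with their values known.

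The proteases that trim neurotrophin precursors, and their inhibitors, were divided. Of 12 measured, 4 rose, 4 fell and 4 did not pass, with a median of 0.29. Plat, tissue plasminogen activator, which starts the plasmin cascade that cleaves the precursor of brain-derived neurotrophic factor, fell by 1.86 ± 0.13 (SE, limma adjusted p = 1.32e-06). It read 12.39 on average in the arrays labelled undifferentiated and 10.53 in those labelled differentiated. Serpini1, its inhibitor neuroserpin, fell by 0.91, and the precursor convertase Pcsk6 fell by 1.22. The matrix metalloproteinases Mmp9 and Mmp3, which are also known to cut the precursors, rose by 2.87 and 1.55, and the plasminogen activator Plau rose by 0.52. Plau lost its call without undifferentiated replicate 2 (limma adjusted p = 0.0522). Neither class moved as 1: the metalloproteinase Mmp7, a dim gene with means of 4.60 and 3.74, fell by 0.85 (limma adjusted p = 0.00824). The convertase Furin rose by 0.56 (limma adjusted p = 0.0152, and 0.0622 without differentiated replicate 1). Furin also lost its call without differentiated replicate 3 (limma adjusted p = 0.0615) and without undifferentiated replicate 2 (0.0656). In the unmoderated test neither Mmp7 (adjusted p = 0.106) nor Furin (0.149) passed. Mmp7 and Furin lie outside the naming rule and were added with their values known.

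Trk adaptors and the kinases of the Ras, PI3K and phospholipase arms were called about as often as all genes. Of 31 measured, 6 rose, 5 fell and 20 did not pass, with a median of 0.03. Braf, the kinase that carries Trk signals towards ERK, fell by 0.84 ± 0.10 (SE, limma adjusted p = 8.98e-05). Rps6ka2, a ribosomal S6 kinase downstream of ERK, fell by 0.96, and the docking protein Gab2 fell by 0.68. Shc3, the Shc adaptor found in neurons, rose by 0.86, the docking protein Gab1 by 0.68 and the small GTPase Nras by 0.55. Genes of Trk trafficking and turnover were likewise divided: of 14 measured, 3 rose, 5 fell and 6 did not pass, with a median of -0.04. Hap1, which helps carry Trk vesicles along axons, fell by 1.57, Ptprf, a receptor tyrosine phosphatase, by 1.31, and Lrig2 by 0.74. Ehd4, an endocytic protein of Trk uptake, rose by 0.99, the phosphatase Ptpn1 by 0.69 and the dynein light chain Dynlt1 by 0.50.

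Of 22 measured genes of p75 adaptors, shedding and the death arm, 4 rose, 8 fell and 10 did not pass, with a median of -0.15. Maged1 and Bex3, both known to bind the p75 receptor, fell by 1.21 and 0.95, and Ncstn, a subunit of the gamma-secretase that cuts it, fell by 1.16 ± 0.09 (SE, limma adjusted p = 4.34e-06). Other subunits were divided: Psen2 and Psenen fell by 0.66 and 0.46, and Aph1a rose by 0.39 (limma adjusted p = 0.0187). Aph1a lost its call without differentiated replicate 3 (limma adjusted p = 0.0788). Psen2, Psenen and Aph1a lie outside the naming rule and were added with their values known. Bcl2l11, the death-promoting protein Bim, rose by 0.92, Ripk2, a kinase that binds the p75 death domain, by 0.83 and Bax by 0.42. Bax lost its call without undifferentiated replicate 3 (limma adjusted p = 0.0503).

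Transcripts known to be induced by neurotrophins in neurons and PC12 cells moved in both directions. Of 14 measured, 8 rose, 3 fell and 3 did not pass, with a median of 0.47. The immediate early gene Egr1 rose by 1.71 ± 0.14 (SE, limma adjusted p = 5.39e-06), the synaptic scaffold Homer1 by 1.01 and the nuclear receptor Nr4a1 by 0.89. Vgf, a granule peptide precursor, fell by 3.24 ± 0.20 (SE, limma adjusted p = 5.48e-07). Scg2, secretogranin, fell by 2.38, and the activity-regulated Arc fell by 0.94. Vgf and Scg2 are also granule genes of neuroendocrine cells, and they fell beside the glomus cell markers given above. The part of those cells in these falls was not tested.

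**Figure D4:**
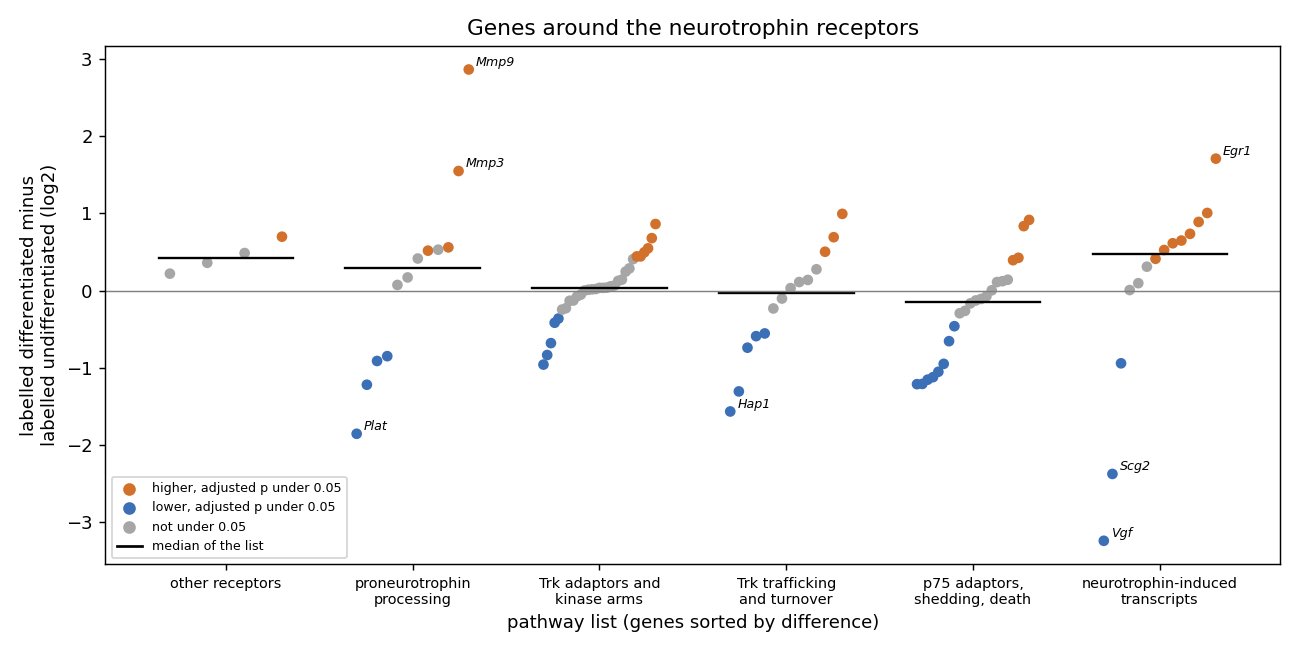
Difference of each measured gene (y axis, log2) in 6 lists of neurotrophin pathway genes (x axis), sorted within each list; orange and blue points passed at a limma adjusted p under 0.05, grey points did not, and black lines give list medians. Rises and falls stand side by side in every list but that of the other receptors, with Mmp9 at 2.87 the highest and Vgf at -3.24 the lowest point.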

How the data were processed

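RNA from 6 arrays was read from the values table that the authors deposited, with 1 log2 value per probe set and array; the log2 base was inferred from the range of the values. Their background correction, normalization and software: not given in the sources used here. The values were used as deposited. Probe sets were named from the platform table: of 29214, 15310 had 1 symbol, 323 several, and 13581 were not listed. Each gene was its probe set of highest mean, which left 14506 genes. Genes that share probes with close copies are less certain.

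The groups, taken from the sample titles, were compared by limma 3.58.1 under R 4.3.3, using lmFit and trended eBayes, two-sided, with Benjamini-Hochberg adjustment over all genes. The procedure was tested on simulated data. The precision is limited by 3 arrays a group. The members and lists were chosen with earlier results of these data known. All members were named, and from each pathway list up to 3 genes in each direction by smallest p. Alternatives changed the normalization, the filter, the probe set rule, the variance model, the threshold or the arrays. Listed genes that no single-symbol probe set named were not analysed here.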

Additional observations from a re-analysis of the deposited data

How the results depend on the processing

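Ntrk2, Sort1 and Bdnf passed in all 18 fits run for each, with limma adjusted p of 2.97e-08 to 0.00385, 4.67e-07 to 0.00638 and 0.00141 to 0.0333 (the highest of each from the unmoderated test), and Ntf3, Ntf4 and Ngfr passed in 0. With each array left out the differences ran from -2.90 to -2.70 for Ntrk2, -1.76 to -1.55 for Sort1, 0.54 to 0.68 for Bdnf, 0.07 to 0.29 for Ntf3, -0.52 to -0.06 for Ngfr, -0.55 to -0.29 for Ntrk3 (passed only without differentiated replicate 3) and -0.0414 to 0.103 for Ntf4, whose sign turned without undifferentiated replicate 1. The count of members called then ran from 3 to 4 and that of other receptors from 1 to 2. Over all genes 4286 were called, 2740 by the unmoderated test. That test lost the calls of Plau, Gab1, Gab2, Nras and Dynlt1 among the genes named by rule.

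Ntf3 was left out with dim genes and has no value there. The replicate number as a block called 4430 genes, changed no member's call and gave Ngfr a limma adjusted p = 0.0536. Of other genes given here it called Sorcs2 (0.00369), Rtn4r (0.0427), Erbb3 (0.00141) and Nes (0.000308). None of these passed in the fit behind the results above, but each also passed under another alternative. Deviations of same-numbered arrays correlated at 0.09, 0.07 and -0.01, so the numbers were not taken to pair the arrays, and 4 of the 6 arrays correlated best with their own number. How far dim probe sets such as those of Ntf3 stood over background is not known.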
